A study of Homo sapiens with 12 samples.

Results

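Regions of the transcriptome whose N6-methyladenosine (m6A) signal moved by a large amount after toosendanin, and which were also well counted, were described in HepG2 cells. A region was taken as a member when it carried a single gene label, when each of its 4 summed read counts was 100 or more, and when the absolute log2 shift of its IP over input ratio, toosendanin against control, was 0.5 or more in the raw counts. The rule found 604 member regions of 46178 regions in all. They made up 3.06% of the 19770 single-gene regions that met the count minimum, and they lay under 572 gene labels. HepG2 cells are a long-established human line of liver tumour origin, and toosendanin is a triterpenoid of Melia toosendan known for liver toxicity. The control group held 3 IP and 3 input libraries of HepG2 cells labelled control, and the treated group 3 IP and 3 input libraries of HepG2 cells labelled toosendanin. The labels name no other agent, and give neither dose nor time, nor say whether the 3 libraries stem from different cultures.

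m6A is placed on adenosines of nascent RNA by a complex built around METTL3 and METTL14, can be removed by FTO and ALKBH5, and is bound by readers such as the YTH proteins, which are known to affect decay, splicing and translation of the marked RNA. In the assay, RNA fragments caught by an m6A antibody (IP) are counted beside the fragments before the pull-down (input). A high IP over input ratio in a region stands for strong recovery by the antibody. In the liver, m6A is known to mark transcripts of lipid metabolism and of stress responses.

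The members were chosen by their shift in the summed counts, so their counts, ratios and shifts are given as a description and were not tested. The deposited counts are sums over the libraries of a condition, so no spread between libraries could be computed. Each error written with ± below is the standard error from counting alone, and each 95% interval covers counting error only. Over all regions the control sums came to 42316089 IP and 34131862 input reads, and those of the treated cells to 29094328 and 24253006. Cell identity was looked up by markers: in the authors' deposited table all 10 hepatocyte markers were well counted, with mean normalized counts between 5546 and 411979. Of 19 markers of fibroblasts, endothelium, blood and neurons, 14 were below 10 in the authors' deposited table and 7 of these were at 0, while the highest, LYZ, stood at 49191. The files used here give no position for a region, so members are named by their gene and their counts, and neither coordinates nor sequences are printed. Fewer cells and less RNA per cell cannot be told apart in these bulk libraries.

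Of the 604 members, 326 regions under 308 gene labels, or 1.65% of the regions that met the minimum, had a higher IP over input ratio after toosendanin. A lower ratio was found in 278 regions under 269 gene labels, or 1.41%. The median shift was 0.57 among the higher members and -0.59 among the lower ones, against 0.00 over all 19770 regions that met the minimum. The lower members reached further, to -1.54, against 1.34 for the highest member. A shift of 1 or more in size was seen in 9 lower and 4 higher members, and one of 0.75 or more in 44 lower and 27 higher members. The share of higher members, 54.0% in the raw counts, depended on the scaling: it was 72.3% when the counts were scaled to the 4 totals and 32.0% when the log2 fold change of the authors' deposited table was used with the same threshold. The split into higher and lower members is therefore given for the raw counts only and not as a balance of gains and losses.

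The 3 largest shifts were negative, in IL6ST, SEC14L1 and TCEA1. The region of IL6ST, the shared signal-transducing receptor subunit of the interleukin-6 family, held 837 IP and 847 input reads in control against 108 and 317 after toosendanin. Its ratio went from 0.988 to 0.341, a shift of -1.54 ± 0.18. The other 10 regions of IL6ST, with counts pooled, shifted by -0.06. The input of the member was also lower by more than theirs. Scaled to the totals, its input difference was -0.92 on the log2 scale, against -0.27 in those other regions.

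SEC14L1, a protein with a lipid-binding domain of the SEC14 type, had 2 members. In the first, 433 IP and 397 input reads became 176 and 446, and the ratio went from 1.09 to 0.395, a shift of -1.47 ± 0.16. In the second, 764 IP and 735 input reads became 400 and 807, a shift of -1.07 ± 0.12. In both regions the IP count was lower after toosendanin while the input count was higher, in spite of the smaller total of the treated input. TCEA1, an elongation factor that rescues stalled RNA polymerase II, also had 2 members. The first went from 409 IP and 525 input reads to 163 and 563, a shift of -1.43 ± 0.16, and the second from 321 and 537 to 157 and 447, a shift of -0.77 ± 0.17. The pattern of SEC14L1, a lower IP count beside a higher input count, was seen in the first of these.

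The next largest negative shifts were in MAFK, KLF6, TMEM184A and TCF7. MAFK, a small Maf protein that pairs with NRF2, went from 489 IP and 204 input reads to 157 and 141, and from a ratio of 2.40 to 1.11, a shift of -1.11 ± 0.21. The input of this region did not follow the rest of its transcript: scaled to the totals, its input difference was -0.04 on the log2 scale, against 1.37 in the other 6 regions of MAFK. KLF6, a zinc finger factor of the early stress response, had 3 members, all lower. The first of them went from 170 IP and 137 input reads to 190 and 329, a shift of -1.10 ± 0.21, and the other two shifted by -0.70 ± 0.23 and -0.59 ± 0.16. In all 3 the IP count was higher after toosendanin, but the input was higher by more. TCF7, a factor that carries Wnt signals to DNA, went from 258 IP and 149 input reads to 196 and 239, a shift of -1.08 ± 0.20. TMEM184A at -1.08 ± 0.21, ZCCHC14 at -0.99 ± 0.19 and MZT2A, a component of the complex that nucleates microtubules and 1 of a near-identical pair with MZT2B, at -1.04 ± 0.15 completed the 10 largest negative shifts.

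The 4 largest positive shifts all lay under labels of gene families with near-identical copies, and are uncertain because the files do not say how reads that fit several copies were counted. CBWD1, a zinc chaperone with several copies, went from 215 IP and 398 input reads to 221 and 162, and from a ratio of 0.540 to 1.36, a shift of 1.34 ± 0.19. A second CBWD1 region shifted by 0.57 ± 0.13. PPIP5K1P1-CATSPER2, a readthrough of a pseudogene, went from 124 and 252 reads to 218 and 185, a shift of 1.26 ± 0.21. PKD1P1, a pseudogene copy of the polycystin gene, stood at 1.15 ± 0.20 and the golgin copy GOLGA6L9 at 1.09 ± 0.18.

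Among the next 6 positive shifts, 5 lay under labels outside the families looked up. NGRN, a factor of mitochondrial ribosome assembly, went from 128 IP and 324 input reads to 147 and 195, and from a ratio of 0.395 to 0.754, a shift of 0.93 ± 0.22. DUS2, which makes dihydrouridine in tRNA, shifted by 0.92 ± 0.23, and ZMYM6 by 0.89 ± 0.24. VCL, which ties adhesions to actin, went from 106 and 266 reads to 103 and 140, a shift of 0.88 ± 0.25. TOMM40, the channel of mitochondrial protein import, stood at 0.83 ± 0.21. NBPF11, which belongs to a multi-copy family, stood at 0.83 ± 0.19. In these regions the ratio in control was below 1, between 0.359 in TOMM40 and 0.777 in ZMYM6. Over all members, 31 of 604 (5.13%) lay under labels of the multi-copy families looked up, against 209 of 19770 regions that met the minimum (1.06%). That family list was drawn up after the members had been seen, so these shares support nothing.

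**Figure D1:**
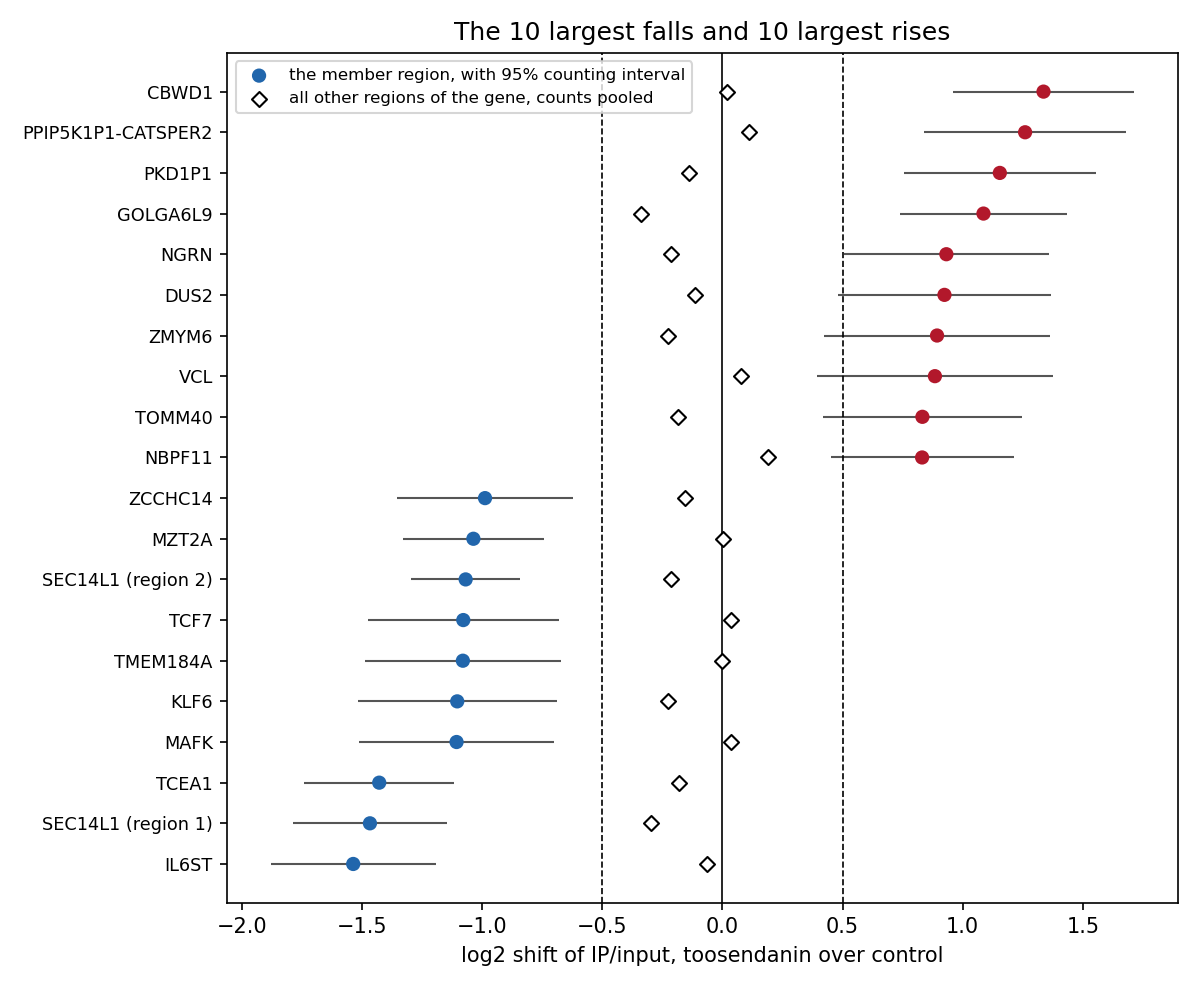
Log2 shift of the IP over input ratio (x axis, toosendanin over control) for the 10 lowest and 10 highest members (rows). Filled points are the member regions with their 95% counting intervals, open diamonds the pooled counts of the other regions of the same gene, and dashed lines the threshold of 0.5. The members run from -1.54 in IL6ST to 1.34 in CBWD1, while every diamond lies between the dashed lines.

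The 5 members in each direction with the smallest counting error had shifts of 0.50 to 0.79 in size. A2M, a protease inhibitor secreted by hepatocytes, had 2 members with 4078 and 3624 control IP reads. The first went from a ratio of 0.377 to 0.544, a shift of 0.53 ± 0.04, and the second from 0.350 to 0.509, a shift of 0.54 ± 0.04. The 4 counts of the 2 regions were alike (10822 and 10367 control input reads), and whether they overlap is not given. ORM2, an acute phase protein with the near-identical copy ORM1, went from 5536 IP and 4564 input reads to 4191 and 2285, a shift of 0.60 ± 0.05. CPE, a peptide-processing carboxypeptidase, went from 1031 and 2056 reads to 1392 and 1754, a shift of 0.66 ± 0.08. BABAM1, a subunit of a DNA repair complex, stood at 0.51 ± 0.09.

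Among the deeply counted lower members, PFN1, the actin-binding profilin, went from 2508 IP and 2756 input reads to 1221 and 1901, a shift of -0.50 ± 0.07. AFP, the fetal counterpart of albumin, went from 2121 and 2452 reads to 1019 and 1847, and from a ratio of 0.865 to 0.552, a shift of -0.65 ± 0.07. The other 2 regions of AFP, pooled, shifted by 0.11. EIF5A, a translation factor, had 1 such member at -0.79 ± 0.07 and a second member at -0.92 ± 0.08, and GUK1, the guanylate kinase, had its 2 members at -0.72 ± 0.07 and -0.85 ± 0.08. Whether the 2 members of EIF5A overlap, or those of GUK1, is not given. The remaining region of each gene was no member and had a positive shift, 0.15 in EIF5A and 0.19 in GUK1. TAF15, an RNA-binding protein, stood at -0.56 ± 0.07.

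The counting interval lay wholly past the threshold in 34 members, 26 lower and 8 higher. Of the 8 higher ones, 6 were under multi-copy labels (ORM2, PDZK1P1, GOLGA6L9, PKD1P1, PPIP5K1P1-CATSPER2 and CBWD1) and the other two were CPE and NGRN. Of the 26 lower ones, 3 were under multi-copy labels (MZT2A, MZT2B and HERC2P9). Beside the genes already given, the 26 lower ones included regions of NPM1, a nucleolar chaperone, at -0.67 ± 0.08, SOX12 at -0.97 ± 0.10, TRIM8 at -0.93 ± 0.13 and TNRC6A, a partner of Argonaute proteins, at -0.89 ± 0.20. These 4, PDZK1P1, MZT2B and HERC2P9 were named after their values had been seen. The interval excluded 0 in 600 of 604 members, which follows from the rule's count minimum and threshold and carries no weight of its own. Just inside the threshold were YPEL2 and LOC646471 at 0.50 and INKA2 and GTF2E1 at -0.50. Just outside, and at the same value to 2 decimals, were a second region of GOLGA6L9 and PDCD7 on the higher side and TSPAN14 and OPTN on the lower side. With a median counting error of 0.20 among members, regions on the 2 sides of the threshold differed by less than the error.

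Large shifts were most often seen where counts were low. Among regions with a mean of the 4 counts between 100 and 200, 231 of 3124 (7.39%) were members. The share was 5.21% between 200 and 300, 2.92% between 300 and 500, 1.23% between 500 and 1000 and 0.407% between 1000 and 2000. Above 2000 it was 0.238%, or 6 of 2517 regions. The median counting error went down with depth in the same order, from 0.23 to 0.05 on the log2 scale.

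**Figure D2:**
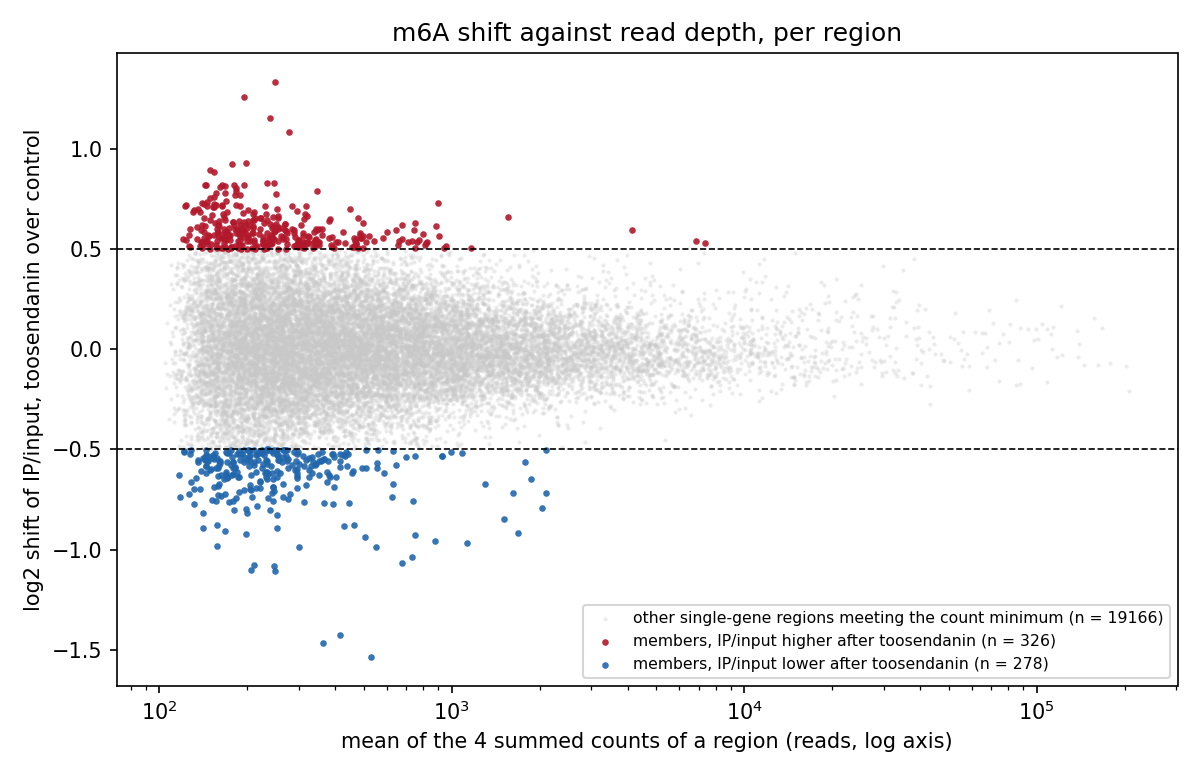
Log2 shift of the IP over input ratio (y axis) against the mean of the 4 summed counts of a region (x axis, log scale) for 19770 single-gene regions, with members in red (326 higher) and blue (278 lower) and the threshold of 0.5 dashed. The cloud narrows with depth, and 6 of 2517 regions with a mean above 2000 reads are members.

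By the FDR of the authors' deposited table, 334 of the 546 members with an FDR passed 0.05, and 58 members carried none. Over all regions with an FDR in the authors' deposited table, 8.95% passed, 2.71% higher and 6.24% lower, and among those that met the count minimum 10.6%. The contrast that chose the members gave these calls, so nothing is read from the difference. Within the members, 144 of 289 higher and 190 of 257 lower regions passed in the authors' deposited table, whose log2 fold changes are offset to lower values than the raw shifts.

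The large shifts were mostly not shared by the other regions of the gene. Another region of the same gene with enough pooled counts was found for 549 members, with a median of 4 other regions. The pooled shift of the other regions had a median of 0.02 for the 300 higher members and of -0.05 for the 249 lower members. It had the sign of the member in 168 of 300 (56.0%) and 157 of 249 cases (63.1%). Over the 17402 regions that met the minimum and had such other regions the share was 55.3%. The pooled shift was itself past the threshold in the same direction for 2 lower members and 0 higher ones. Over the 17402 regions it was so for 85, so a pooled shift of this size was rare for any region and is no trait of the members. Of the 572 genes, 542 had 1 member, 28 had 2 and 2 had 3, KLF6 and NAA60. Regions of a gene share transcripts and libraries, so these are not independent measurements.

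The members of 5 genes lay on both sides, of which 4 are described here. F11R, a tight junction protein, had a higher region at 0.53 ± 0.16 and a lower one at -0.75 ± 0.18. In DHRS3, a retinal reductase, a region of high control ratio, 2.43, shifted by -0.51 ± 0.20 and one of low ratio, 0.524, by 0.54 ± 0.11. NAA60, an acetyltransferase of the Golgi, had 2 higher members, at 0.59 ± 0.22 and 0.52 ± 0.25, and a lower one at -0.59 ± 0.23. POLR3A, the largest subunit of RNA polymerase III, had members at 0.73 ± 0.25 and -0.50 ± 0.21. In these 4 genes the highest control ratio among the members belonged to a lower member. The control ratio is the denominator of the shift, so the rule favours this order and nothing is read from it. The remaining 25 genes with several members had them on 1 side, 17 higher and 8 lower.

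Higher and lower members started from different levels and ended at like ones. The level of a region is given here as log2 of its IP over input ratio relative to that of the totals. In control the median level was -0.99 for the higher members and 0.17 for the lower ones, against -0.21 over all regions that met the minimum. After toosendanin the medians were -0.32 and -0.42, against -0.14. Above 0 in control were 6 of 326 higher members and 163 of 278 lower ones, against 7841 of all 19770 regions that met the minimum (39.7%). After toosendanin 68 higher members, 84 lower members and 8317 of all these regions (42.1%) were above 0. The control counts enter both the level and the shift, so a region counted low in control IP is more easily a higher member. Among 351 regions with a control level below -1.5, 40 were higher members and 0 lower. Among 933 regions with a level of 1 or more, the strongly enriched ones, 36 were lower members and 0 higher. The median shift over all regions in these classes ran the same way, 0.27 in the lowest and -0.18 in the highest. NFE2L3, a factor related to NRF2, was among the most enriched members, and went from 1482 IP and 347 input reads to 519 and 173, a shift of -0.51 ± 0.15.

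**Figure D3:**
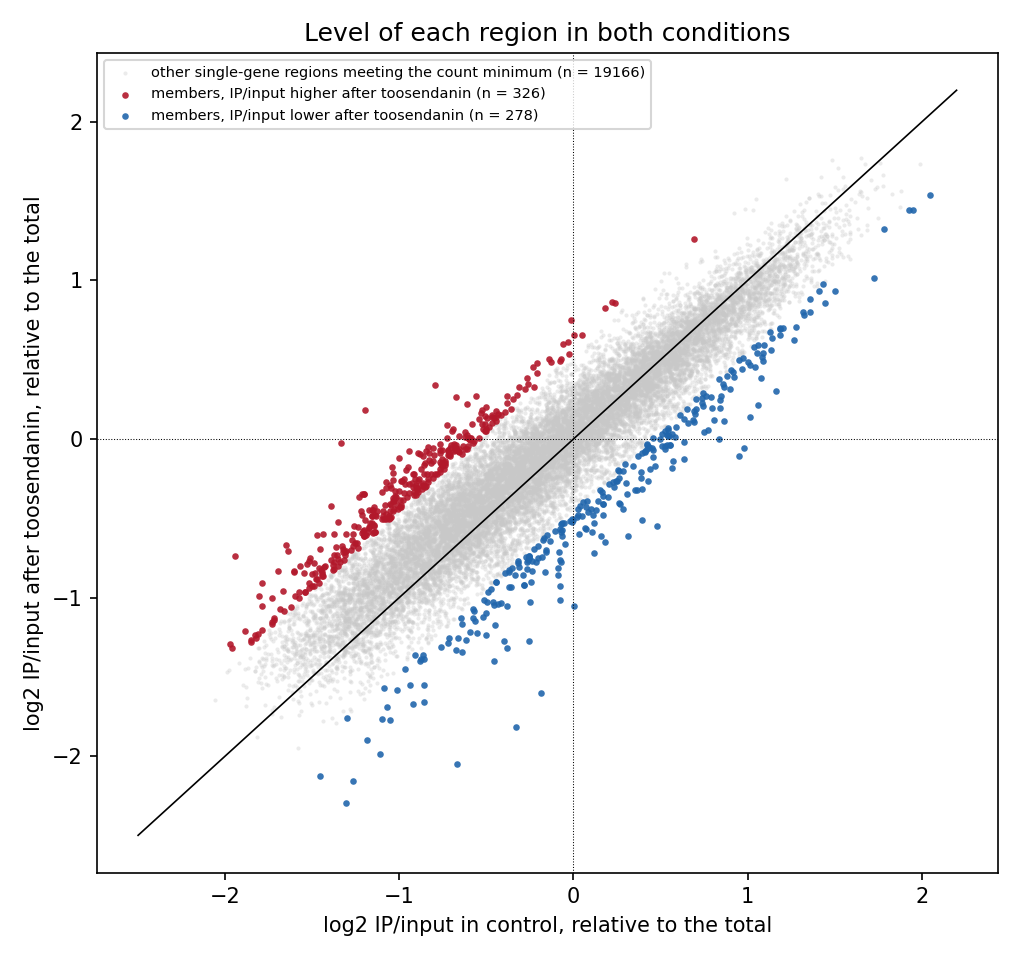
Level of 19770 single-gene regions after toosendanin (y axis) against control (x axis), as log2 of IP over input relative to the totals, with the line of equal level. The higher members (red) lie mainly at control levels below 0, with a median of -0.99, and the lower members (blue) run from -1.45 to 2.05, with a median of 0.17.

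Both counts contributed to the shifts. Scaled to the totals, the IP of higher members differed by a median of 0.47 on the log2 scale, toosendanin over control, and their input by -0.19. In lower members the IP differed by a median of -0.24 and the input by 0.35. Over all regions that met the minimum the medians were 0.09 and 0.03. The difference in IP was the larger in size in 222 of 326 higher members, and the difference in input in 151 of 278 lower members. Over all 19770 regions that met the minimum, IP was the larger in 10641 and input in 9129. These counts depend on the scaling to the totals, which left both medians over all regions above 0, so no lead of either count is read from them. IP and input differed in opposite directions in 330 of 604 members (54.6%), which the rule favours, against 19.5% over all regions that met the minimum.

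The input of some members departed from that of the rest of the gene. Relative to the pooled input of the other regions, the input difference of the region was 0.5 or more on the log2 scale in 44 of 249 lower members and by -0.5 or less in 9. For higher members these numbers were 3 and 20 of 300. Over all regions that met the minimum and had other regions they were 304 and 276 of 17402. A departure of this size in either direction was seen in 13.8% of the 549 members with other regions. It was seen in 3.33% of the 17402 regions that met the minimum and had other regions. The input counts stand in the denominator of the shift, so the rule favours a raised input in lower members and a lowered one in higher members. Nothing is read from the difference in shares. Low counts widen this measure as they do the shift. CPLX2, a regulator of vesicle fusion, is an example: its member went from 797 IP and 685 input reads to 123 and 180, a shift of -0.77 ± 0.19. Its scaled input difference was -1.44 on the log2 scale and that of its other 5 regions -2.18. CANX, a chaperone of the endoplasmic reticulum, had both counts higher in 1 region, which went from 626 IP and 688 input reads to 1083 and 799. There the scaled input difference was 0.71, against 0.12 in the other 8 regions, and that of IP was 1.33.

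**Figure D4:**
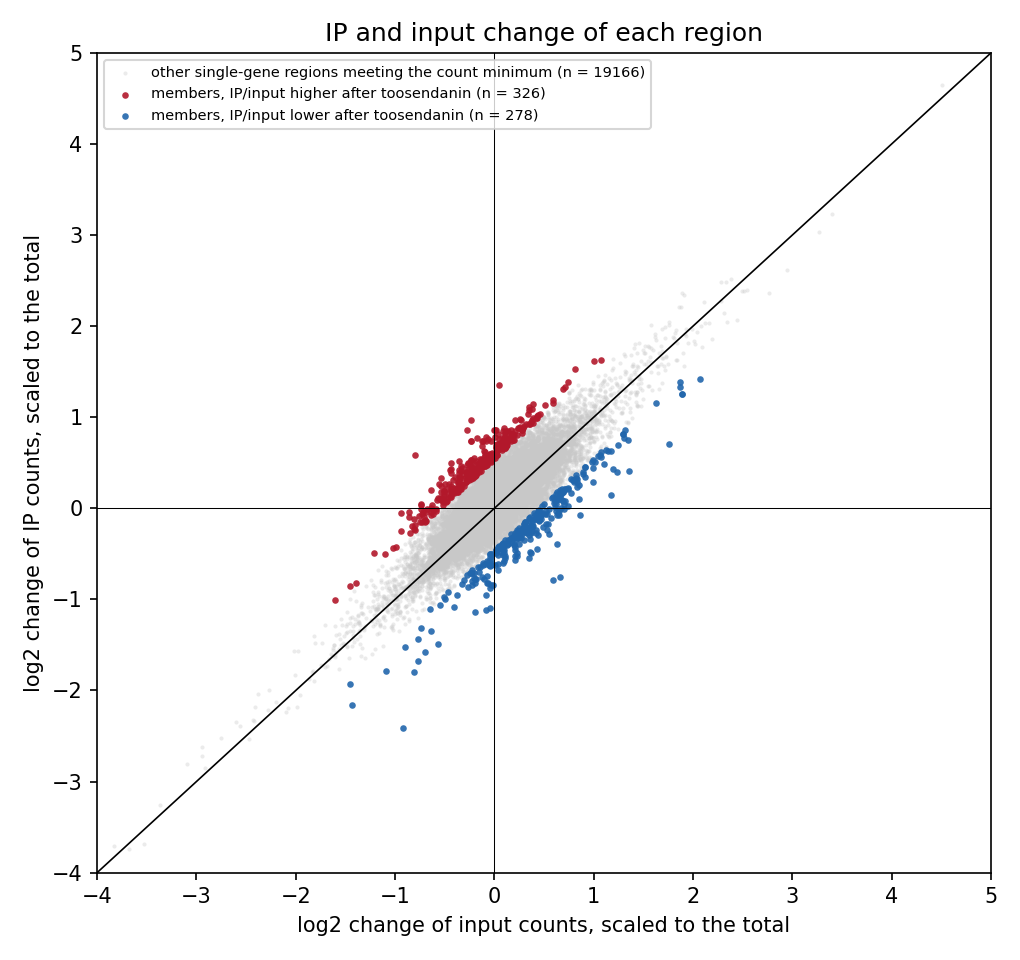
Log2 change of IP counts (y axis) against log2 change of input counts (x axis), both scaled to the totals, for 19770 single-gene regions, with the line of equal change. Higher members (red) have a median IP change of 0.47 and input change of -0.19, and lower members (blue) -0.24 and 0.35.

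Regions of the m6A machinery itself were among the members. Of 65 regions of writers, erasers and readers that met the minimum, 2 were members, a share of 3.08% beside 3.06% over all regions, and the median shift of the 65 was -0.07. METTL3, the catalytic writer, had a region that went from 299 IP and 407 input reads to 234 and 213, and from a ratio of 0.735 to 1.10, a shift of 0.58 ± 0.18. ALKBH5, an eraser, had a region that went from 408 and 699 reads to 179 and 444, and from 0.584 to 0.403, a shift of -0.53 ± 0.16. The FDR of the authors' deposited table was 0.0524 for the METTL3 region and 0.00229 for the ALKBH5 region.

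Among autophagy and lysosome genes 2 of 65 regions were members (3.08%, beside 3.06% over all regions that met the minimum), both lower, while the median of the 65 was 0.08. MAP1LC3B, which coats autophagosomes, went from 512 IP and 435 input reads to 469 and 789, and from a ratio of 1.18 to 0.594, a shift of -0.99 ± 0.13. SQSTM1, a cargo receptor, went from 220 and 251 reads to 255 and 454, and from 0.876 to 0.562, a shift of -0.64 ± 0.17. In both genes the pooled other regions shifted the other way, by 0.10 and 0.24. Of 45 heat shock and chaperone regions 3 were members (6.67%), with DNAJA1 at 0.63 ± 0.14, DNAJB6 at -0.69 ± 0.17 and DNAJB4 at -0.58 ± 0.24. Of 81 regions of stress response genes 2 were members (2.47%), both higher. They were CANX at 0.58 ± 0.10 and SEL1L, of the pathway that clears misfolded proteins, at 0.68 ± 0.21. No direction is read from lists with so few members.

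Lipid genes had 5 members among 155 regions (3.23%, beside 3.06% over all regions that met the minimum). Of these, 3 were higher and 2 lower, and the list median was 0.00. FASN, the fatty acid synthase, went from 391 IP and 759 input reads to 184 and 685 in 1 region, and from a ratio of 0.515 to 0.269, a shift of -0.94 ± 0.15. The other 4 regions of FASN, pooled, shifted by 0.24. ACACA, which makes the substrate of FASN, had a region at 0.56 ± 0.18. Secreted hepatocyte proteins had 4 members among 105 regions (3.81%), with A2M and ITIH3 higher and AFP lower. Of 28 regions of hepatocyte identity markers, the AFP region was the only member (3.57%). Xenobiotic and bile acid genes had 1 among 76 (1.32%), GSTA1, a glutathione transferase, at 0.53 ± 0.15. Glucose and hypoxia genes had 1 among 49 (2.04%), the hexokinase HK2 at 0.53 ± 0.21.

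Cytoskeleton and adhesion genes had 8 members among 209 regions (3.83%), 6 higher and 2 lower, with a median of 0.05 over the list. Over all regions that met the minimum 3.06% were members, 1.65% higher and 1.41% lower. TUBB4B, a beta tubulin, went from 572 IP and 1022 input reads to 498 and 608, a shift of 0.55 ± 0.12. CDH1, the epithelial cadherin, went from 138 and 313 reads to 294 and 467, a shift of 0.51 ± 0.18, and 2 regions of the spectrin SPTAN1 stood at 0.51 ± 0.23 and 0.50 ± 0.22. Wnt, YAP and BMP targets had 2 among 45 (4.44%), both lower, TCF7 as above and CCN1 at -0.51 ± 0.20. Immediate early genes had 3 among 43 (6.98%), all of them the KLF6 regions. Cell cycle genes had 1 among 34 (2.94%), the condensin subunit NCAPD2 at 0.55 ± 0.13, and DNA replication and repair genes 0 among 44. Kinesins had 1 among 51 (1.96%), KIF1C at 0.60 ± 0.21. Collagens had 1 among 15 (6.67%), COL9A3 at 0.62 ± 0.18, and markers of other cell types 0 among 4. No direction is read from lists with so few members.

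Chromatin and transcription regulators had 5 members among 254 regions, a share of 1.97% beside 3.06% over all regions that met the minimum. CREBBP, a histone acetyltransferase, went from 502 IP and 295 input reads to 283 and 255, a shift of -0.62 ± 0.16, while 2 regions of the coactivator NCOA6 stood at 0.81 ± 0.22 and 0.55 ± 0.19. Zinc finger genes had 7 among 373 (1.88%), 1 higher and 6 lower, with a list median of -0.08. Over all regions that met the minimum, 1.65% were higher and 1.41% lower members. Among the zinc finger members were ZNF318 at -0.57 ± 0.20, ZNF664 at -0.64 ± 0.21 and the higher ZNF592 at 0.51 ± 0.18. Solute carriers had 9 among 273 (3.30%), 4 higher and 5 lower, with SLC39A3, a zinc importer, at -0.61 ± 0.20 and SLC5A9 at 0.55 ± 0.16. Ribosomal protein genes had 1 among 109 (0.917%), RPS15A at 0.56 ± 0.15, and a list median of 0.13. Under scaling to the totals all shifts move up by 0.05 on the log2 scale, which would reverse the sign of list medians between -0.05 and 0.

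Of 49 regions of noncoding RNAs looked up for their known m6A, 2 were members (4.08%, beside 3.06% over all regions that met the minimum), both lower, and the median of the 49 was -0.08. MALAT1, an abundant RNA of nuclear speckles, had 1 member among its 8 regions, which went from 762 IP and 735 input reads to 920 and 1282, and from a ratio of 1.04 to 0.718, a shift of -0.53 ± 0.10. The antisense label TALAM1 has a member whose counts differ from these by at most 1 read, so the reads of both labels cannot be told apart and the members hold this region under both names. The members of PRKCZ and FAAP20 were identical in all 4 counts, so these 2 labels cannot be told apart either. NEAT1, which builds paraspeckles, went from 256 and 395 reads to 247 and 604, a shift of -0.66 ± 0.16. Intergenic transcripts had 2 members among 49 (4.08%), LINC00205 at 0.60 ± 0.17 and LINC00667 at -0.58 ± 0.21. Antisense labels had 1 among 160 (0.625%), ATXN1-AS1 at -0.53 ± 0.22.

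Genes of the members were called in expression about as often as other genes with well-counted regions. In the authors' deposited table, 31.4% of all genes with an adjusted p passed 0.05 (15.7% higher and 15.7% lower), and 42.7% of the 8377 genes with a single-gene region that met the minimum. Of the 571 member genes with an adjusted p, 248 (43.4%) passed in the authors' deposited table, 122 higher and 126 lower. Genes of lower members were more often higher in expression, 70 against 45 of 269, and genes of higher members more often lower, 81 against 54 of 307, in the authors' deposited table. Over the 8377 genes the authors' deposited table had 21.1% higher and 21.5% lower. The input counts stand in the denominator of the shift, and the deposited expression comparison may rest on the same libraries, so the lean was not tested.

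Lower members in genes with higher expression were led by ATXN1-AS1, KLF6, PRKCZ, SQSTM1 and MAP1LC3B. The PRKCZ region has the same 4 counts as the member labelled FAAP20, so its shift cannot be assigned to either gene. FAAP20 was not called in the authors' deposited table (DESeq2), at -0.30 ± 0.15 with an adjusted p of 0.102. In the authors' deposited table KLF6 stood at a log2 fold change of 1.63 ± 0.15 and MAP1LC3B at 1.44 ± 0.08. ATXN1-AS1 stood at 1.82 ± 0.16 in the authors' deposited table. Higher members in genes with lower expression were led by NCAPD2 at -1.45 ± 0.06, SLC5A9 at -1.43 ± 0.12, TFAP4 at -1.07 ± 0.11, UTRN at -1.01 ± 0.07 and IFT172 at -0.99 ± 0.12 in the authors' deposited table. In its member region, NCAPD2 went from 891 IP and 1541 input reads to 304 and 360, so that IP was lower by less than input.

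The 2 measures ran the same way in other genes. Higher members in genes with higher expression were led by CDH1 at 1.32 ± 0.09, the peptidase PEPD at 1.06 ± 0.15, GTPBP2 at 0.92 ± 0.09 and SFXN5 at 0.88 ± 0.13 in the authors' deposited table. Lower members in genes with lower expression were led by CPLX2 at -1.87 ± 0.42, FAM83D at -1.49 ± 0.22, NFE2L3 at -0.79 ± 0.13, ERRFI1, which restrains EGFR signalling, at -0.76 ± 0.07, and CSE1L at -0.73 ± 0.07 in the authors' deposited table. Of the genes with the 3 largest shifts, the authors' deposited table (DESeq2) gave IL6ST -0.42 ± 0.14 with an adjusted p of 0.0123. It gave SEC14L1 0.25 ± 0.13 with an adjusted p of 0.133 and TCEA1 0.23 ± 0.10 with an adjusted p of 0.0797, again from the authors' deposited table.

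**Figure D5:**
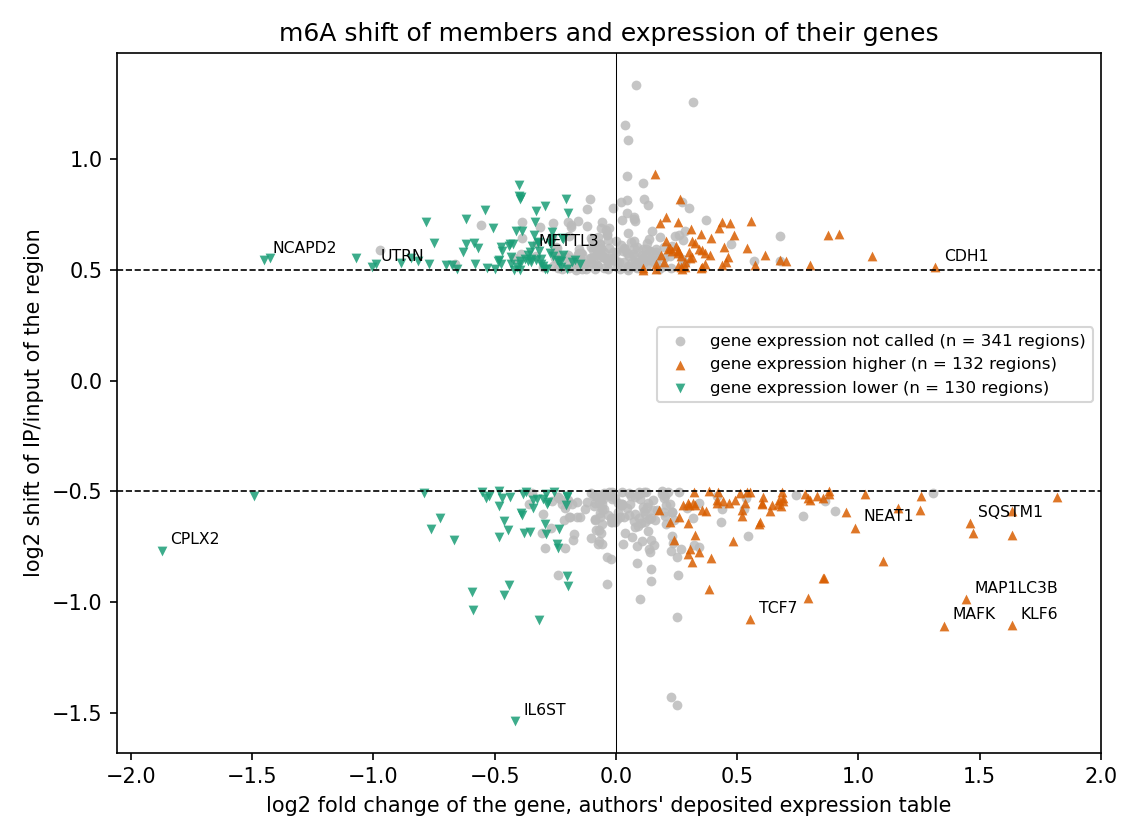
Log2 shift of IP over input of the member regions (y axis) against the log2 fold change of their genes in the authors' deposited expression table (x axis), with the call at an adjusted p under 0.05 by colour and shape. KLF6, MAFK and MAP1LC3B lie at the lower right, NCAPD2 and UTRN at the upper left, and the empty band between the dashed lines is the rule's threshold of 0.5.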

How the data were processed

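Per the labels, stranded mRNA libraries with unique molecular identifiers were made from 12 samples, 3 per group. The submitters' processing notes name HISAT2, StringTie and DESeq. For the region caller, genome build and annotation, no name is given in the sources used here. Per the file headers, the authors deposited, for each region, whole-number read counts, each a sum over 1 kind of library, a log2 fold change, a p-value and an FDR. For expression they deposited a DESeq2 result per gene: the mean normalized count (a signal), a log2 fold change with its error, a Wald score, a p-value and an adjusted p.

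From the summed counts, the raw log2 shift and its Poisson error were computed for every region with pandas 2.3.3 and numpy 2.4.6 under Python 3.11.15. The calculation was tested on simulated data. No test was run here, since the files used hold no values per library, and the edgeR fit foreseen for such values was not made. The members, gene lists and naming rule were chosen with earlier results of these data known. Named are the 10 largest shifts each way, genes with 3 members or with members on both sides, and the 5 members each way with the smallest error. Up to 3 members per list are also named, those whose smallest count was highest. The 2 regions on each side of the threshold and up to 5 genes per pairing with expression are named as well. Other names were chosen after their values were seen. One gene that the rule names is not reported here.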

Additional observations from a re-analysis of the deposited data

How the results depend on the processing

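The number of members follows from the rule's settings. The 326 higher and 278 lower members became 862 and 931 with a count minimum of 50, 99 and 74 with a minimum of 200, 27 and 44 with a threshold of 0.75, and 4 and 9 with a threshold of 1.0. Scaled to the totals there were 508 higher and 195 lower members, and the authors' deposited log2 fold change gave 207 higher and 440 lower ones. Centring on the median gave 319 and 291, inclusion of multi-gene regions 336 and 292, and, chosen after seeing the data, removal of multi-copy families 305 and 268. Also chosen after seeing the data, a counting interval wholly past the threshold left 8 and 26. Of the 334 members called in the authors' deposited table, 183 passed an FDR of 0.01, and adjustment over the regions that met the minimum gave 368. Of 248 member genes called in expression in the authors' deposited table, 19 changed at least 2-fold, 179 passed 0.01 and 246 were in the upper 50% of means. No paired analysis was possible because the counts are sums over the libraries of a condition, and for the same reason no library could be left out. Depth limits the members: their median counting error was 0.20 on the log2 scale, and spread between libraries would add to it.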

Other observations

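Both groups of genes that follow were looked at after the members had been seen, so their counts are a description. In the CCR4-NOT complex, which shortens poly(A) tails and is known to be recruited to m6A-marked RNA by YTHDF2, 3 of 42 regions that met the minimum were members (7.14%), all higher, beside 3.06% members and 1.65% higher members over all regions that met the minimum. CNOT10 went from 247 IP and 290 input reads to 160 and 122, a shift of 0.62 ± 0.21. CNOT7, a catalytic subunit, went from 250 and 329 reads to 209 and 181, a shift of 0.60 ± 0.19, and CNOT2 from 349 and 535 to 257 and 260, a shift of 0.60 ± 0.16. Of the 42 regions, 32 had a shift above 0 and 10 below, with a median of 0.14. Over all 19770 regions 50.6% were above 0. None of these 3 genes passed the adjusted p of 0.05 in the authors' deposited DESeq2 table, where CNOT10 stood at -0.32 ± 0.18, CNOT7 at -0.25 ± 0.14 and CNOT2 at -0.24 ± 0.11 on the log2 scale.

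In ribosome biogenesis, 11 of 123 regions that met the minimum were members (8.94%, against 3.06% over all regions), 8 higher and 3 lower. The higher ones were NOP56 at 0.69 ± 0.24, PDCD11 at 0.62 ± 0.22, PAK1IP1 at 0.60 ± 0.18, NAF1 at 0.57 ± 0.20, POLR1A, the catalytic subunit of RNA polymerase I, at 0.54 ± 0.16, the RNA acetyltransferase NAT10 at 0.52 ± 0.22, the pseudouridine synthase DKC1 at 0.52 ± 0.18 and DIMT1 at 0.50 ± 0.23. The lower ones were NPM1 at -0.67 ± 0.08, POLR1D at -0.60 ± 0.17 and RIOK2 at -0.53 ± 0.12. The 123 regions as a whole had a median shift of -0.01, with 61 above 0 and 62 below. In expression, 34 of the 51 genes of this list with an adjusted p were lower and 0 higher in the authors' deposited table. There, 15.7% of all genes with an adjusted p were lower and 15.7% higher. The 51 include genes without a region that met the minimum, as 47 genes of the list had one. Among all genes with such a region 21.5% were lower and 21.1% higher in the authors' deposited table. NOP56 went from 168 IP and 280 input reads to 115 and 119, and its gene stood at -0.51 ± 0.05 in the authors' deposited table.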
